A study of Rattus norvegicus with 6 samples.

Results

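Choroid plexus of the rat lateral ventricle was profiled before birth, just after birth and in adulthood, and 86 genes read lower just after birth than at both other stages. These genes were chosen by their own values on the 6 arrays. A probe set was taken if its mean at embryonic day 19 (E19) and its mean in the adult both reached 200 units and both came to at least 1.5 times the mean at postnatal day 2 (P2), and if the higher of the P2 pools lay under all 4 E19 and adult values. Only probe sets annotated to 1 gene were considered, and where several probe sets of a gene qualified, the brightest was kept. The 86 members stand among 14217 genes with a probe set of their own, and among 7576 genes that reached 200 units at both E19 and the adult stage, of which they are 1.14%. Because the selection used the P2 dip itself, the dip is described here and not tested. For scale, both P2 pools lay under all E19 and adult pools in 12.5% of the 9356 single-gene probe sets at that level, and the opposite rule, a P2 mean of at least 200 units that was 1.5 times both other means with no overlap, was met by 189 genes.

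The study followed the blood-cerebrospinal fluid barrier of Sprague-Dawley rats through development. Each of the 3 stages, E19 fetuses, P2 pups and adults (males, by the study's methods), was measured on 2 Affymetrix Rat 230 2.0 arrays, and each array held RNA pooled from batches of 6 to 10 plexuses, so that the 2 values of a stage are pools of animals. The labels name no treatment or genetic change, and the strain and tissue are the same in all groups. Values are MAS5 intensities on a linear scale, in units that are scaled to the same trimmed mean on every array, and a level of 1 probe set cannot be set against that of another. The plexus is a mixed tissue of epithelium, stroma, vessels and blood cells. In such bulk samples fewer cells of a type and less RNA per cell cannot be told apart.

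The choroid plexus epithelium secretes cerebrospinal fluid, and together with its tight junctions it separates blood from that fluid. Epithelial cells of the plexus carry many transporters, efflux pumps and receptors on their membranes. The period around birth brings changes in hormones, oxygen and nutrition to every organ of the animal.

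Epithelial markers were bright at all stages: Ttr, which encodes transthyretin, a carrier of thyroid hormone, read 12749.9 and 13345 units at E19, 12702 and 10837 at P2, then 14847 and 11640.1 in the adult, and Otx2, a transcription factor of the plexus, read 12251 and 12608 units at E19, 11278 and 11174 at P2, then 10059 and 10449 in the adult. Both mark the labelled tissue at every stage, although the probe set of the potassium channel gene Kcnj13 stayed under 100 units on all 6 arrays. Median intensity ran from 100.1 to 125.6 units over the arrays. The beta-actin controls gave a 3' over 5' signal ratio of 2.95 and 2.93 in the E19 pools, 2.54 and 2.09 in the P2 pools, and 4.58 and 5.34 in the adult pools, a measure that falls as more full-length RNA is labelled, and the P2 pools had the lowest. GAPDH gave 1.12 to 1.23 with no order of the stages. P2 pool 2 lay below P2 pool 1 in 63 members (73.3%), against 47.9% of the genes at the 200-unit level, and the median ratio of pool 2 to pool 1 was 0.885 in the members and 1.01 in those genes. In 14 members pool 1 was over 1.5 times pool 2. The part of the control ratios and of P2 pool 2 in the dip was not tested. When P2 pool 2 was left out, 55 of the 86 members met the rule again, and when P2 pool 1 was left out 77 did. There were 37 members that met the rule whichever of the 6 pools was left out, and these same 37 also met it after median centring and after quantile normalization.

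Most members dipped by little more than the rule asks. The E19 mean was 1.501 to 9.73 times the P2 mean, with a median of 1.70, and the adult mean was 1.502 to 10.3 times the P2 mean, with a median of 1.89. Over the genes at the 200-unit level the same medians were 0.994 and 1.01. Taking for each member the lower of its 2 ratios, the depth of the dip, 13 members reached 2 and 3 members reached 3. The mean of a member's probe set over the 6 arrays ran from 175 to 5554 units. At P2 one member, Nhsl2, lay under 100 units in both pools and 5 more did so in 1 pool.

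**Figure D1:**
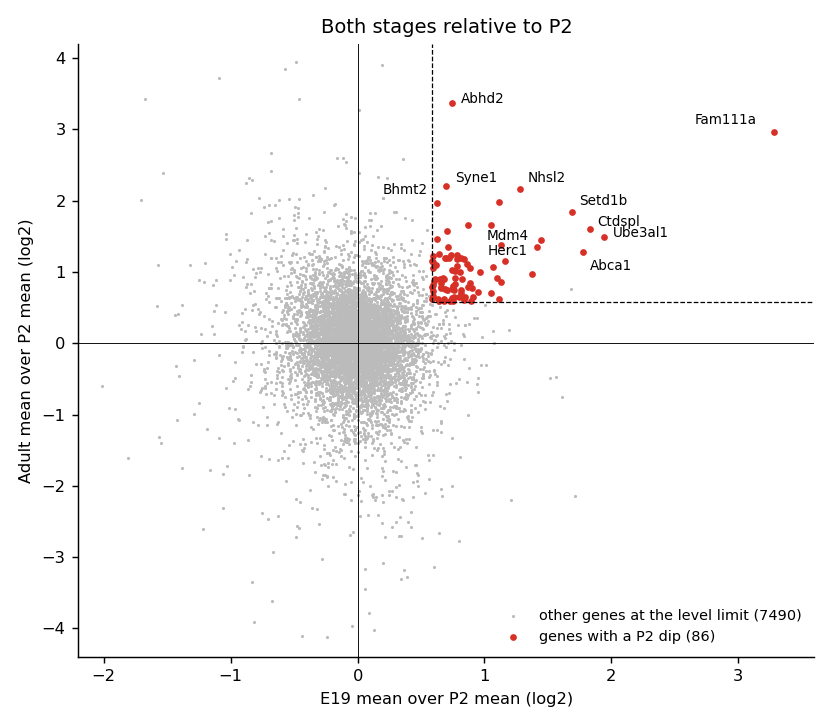
Each point is a gene whose E19 and adult means both reached 200 units, drawn by its E19 mean over its P2 mean (x axis, log2) and its adult mean over its P2 mean (y axis, log2). The 86 members are red, the 7490 other genes grey, and dashed lines mark 1.5 times; Fam111a stands alone at 9.73 and 7.83, Abhd2 has the highest adult ratio, 10.3, and most members lie close to the dashed corner. Grey points beyond both lines had pools that overlapped.

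The deepest dip was that of Fam111a, a serine protease gene whose product works at DNA replication forks and clears proteins that block them. Fam111a read 2675 and 2798 units at E19, 286 and 276 at P2, then 2530.1 and 1876 in the adult. Its P2 pools nearly coincided (mean ± SD 281 ± 7.07, n = 2 pools) and lay far below every other pool, and the means came to 9.73 times the P2 mean at E19 and 7.83 times in the adult. Fam111a has no other probe set that could be set beside this one.

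The bases before the annotated start of Fam111a and of 3 bright members (Abca1, Ddit4 and Srebf1) are shown so that their promoter letters can be read beside their levels. They come from RefSeq on GRCr8, end just before the outermost annotated start of the gene, run 5′ to 3′ on the gene's strand, and have in capitals the CCAAT box (CCAAT or ATTGG), the GC box (GGGCGG or CCGCCC) and the E-box (CACGTG). Fam111a lies on the plus strand at chr1:219065389-219065541, Abca1 on the minus strand at chr5:72596564-72596723, Ddit4 on the minus strand at chr20:28437038-28437287 and Srebf1 on the minus strand at chr10:45529165-45529414.
Fam111a: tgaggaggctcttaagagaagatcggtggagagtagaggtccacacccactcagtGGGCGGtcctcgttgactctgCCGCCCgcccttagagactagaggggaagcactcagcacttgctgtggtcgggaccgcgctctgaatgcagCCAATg
Abca1: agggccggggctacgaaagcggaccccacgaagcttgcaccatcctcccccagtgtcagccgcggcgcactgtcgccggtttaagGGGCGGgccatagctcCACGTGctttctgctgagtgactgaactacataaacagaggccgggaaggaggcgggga
Ddit4: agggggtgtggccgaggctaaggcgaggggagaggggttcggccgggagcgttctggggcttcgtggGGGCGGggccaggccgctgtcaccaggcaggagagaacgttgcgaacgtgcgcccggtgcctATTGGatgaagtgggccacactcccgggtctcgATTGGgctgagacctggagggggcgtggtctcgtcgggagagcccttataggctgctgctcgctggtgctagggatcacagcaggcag
Srebf1: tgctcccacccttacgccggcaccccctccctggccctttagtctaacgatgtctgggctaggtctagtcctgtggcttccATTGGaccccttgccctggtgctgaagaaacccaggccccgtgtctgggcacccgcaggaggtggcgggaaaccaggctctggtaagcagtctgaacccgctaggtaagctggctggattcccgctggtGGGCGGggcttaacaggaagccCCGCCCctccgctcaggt
The 4 windows share GC boxes and no other motif of the search is in all of them. A CACGTG is seen in that of Abca1 alone. A match of letters is a description, not a bound site.

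Among the genes of membrane transport, receptors and trafficking (14 members), Abca1 had the deepest dip. Abca1, which exports cholesterol and phospholipid to apolipoproteins, read 3973 and 3755 units at E19, 1309.8 and 952 at P2, then 2921 and 2583 in the adult. Every E19 pool was above every adult pool, with means 3.42 times the P2 mean at E19 and 2.43 times in the adult. A dimmer Abca1 probe set that met the rule had means of 672, 169 and 364 units at E19, P2 and adult. Another at the 200-unit level missed it, with means of 341, 300 and 335 units and overlapping pools. Sv2b, of the synaptic vesicle glycoprotein family, read 2251 and 3300.3 units at E19, 1341 and 1193 at P2, then 3413 and 3147 in the adult, and its E19 pools differed from each other more than its adult pools did. Slc5a3, the sodium and myo-inositol cotransporter, had the highest mean of the members. It read 7757 and 7799 units at E19, 3304 and 2694 at P2, then 5549.5 and 6223 in the adult, which is 2.59 times the P2 mean at E19 and 1.96 times in the adult. Slc5a3 takes up an organic osmolyte, and Nfat5, its known regulator, was a member too.

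Several receptors and sorting genes of this group came back in the adult above their E19 level. Htr2c, the serotonin receptor for which this epithelium is known, was a member through a dim probe set that read 292 and 364 units at E19, 208 and 185 at P2, then 449 and 476 in the adult. The gene's bright probe set read 15659.5 and 15773 units at E19, 15221 and 14639.6 at P2, then 17626 and 17419.8 in the adult, a P2 mean lower than both other means but by far less than 1.5 times. Igf2r, the receptor that sorts lysosomal enzymes and removes IGF2, read 2175 and 2120.1 units at E19, 1597 and 1262 at P2, then 3318 and 3032 in the adult, and its adult pools lay above its E19 pools. Tcaf1, a regulator of cation channels, read 494 and 458 units at E19, 286 and 294 at P2, then 718 and 769 in the adult. The gene's brighter probe set had means of 1969, 1332 and 2045 units at E19, P2 and adult. There the adult was close to E19. Cpne6, a calcium-dependent phospholipid-binding copine, read 248 and 235 units at E19, 119 and 114 at P2, then 376 and 359.9 in the adult, and Tenm4, a teneurin adhesion receptor, read 863 and 919 units at E19, 568 and 394 at P2, then 996 and 996 in the adult. For Tenm4 the difference between E19 and the adult did not pass the test (limma adjusted p = 0.493). The remaining genes of the group were Pik3c2a (a lipid kinase of endocytosis), Vps13b (a lipid carrier at the Golgi), Rint1, Snx14, Sec63 (protein entry into the endoplasmic reticulum) and Appl1 (an endosomal adaptor), with dips of 1.51 to 1.70. Vps13b drew most of its dip from one pool, since its P2 pools read 1201 and 677.

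Chromatin and transcription coregulators made up 12 members. Setd1b, which methylates histone H3 at lysine 4, had the second deepest dip of all. It read 976 and 1052 units at E19, 318 and 310.3 at P2, then 1037 and 1216 in the adult, with a P2 mean of 314 ± 5.80 (SD, n = 2 pools) and means 3.23 times the P2 mean at E19 and 3.58 times in the adult. Kmt2a, of the same class of methyltransferases, read 302 and 280.2 units at E19, 224 and 162 at P2, then 331 and 309 in the adult. Kmt2d, of that class too, read 588 and 572 units at E19, 403 and 335 at P2, then 615 and 656 in the adult. Their dips of 1.51 and 1.57 were near the limit. Kdm5a removes the mark these enzymes add. It read 774 and 797 units at E19, 534 and 395 at P2, then 823 and 628 in the adult, a dip of 1.56.

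Corepressor and coactivator subunits were among the 12 as well. Ncor1, the nuclear receptor corepressor, read 369 and 360.4 units at E19, 193 and 207 at P2, then 531 and 736 in the adult, and its adult pools lay further apart than its other pools. Atrx, a chromatin remodeller, read 232 and 253 units at E19, 152 and 96.9 at P2, then 187 and 311 in the adult, with P2 pool 2 under 100 units. A dimmer Atrx probe set met the rule as well, but brighter ones did not. Their means at E19, P2 and adult were 576, 574 and 808 units on the first. On the second they were 360, 232 and 208, with P2 above the adult. Ash1l, a methyltransferase for lysine 36 of histone H3, read 617 and 606 units at E19, 392 and 317 at P2, then 698 and 807 in the adult. Ncoa3, a steroid receptor coactivator, was set apart by little, since its lower adult pool (214 units) was just above its higher P2 pool (209.7 units). Med1 (Mediator), Rcor1 (CoREST), Trrap (a scaffold of histone acetyltransferases) and Phf20l1 (a methyl-lysine reader) had dips of 1.502 to 1.68.

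The ubiquitin system gave 7 members, 3 of them ligases of very large size. Herc1 read 686 and 746 units at E19, 336 and 189 at P2, then 729.6 and 700.1 in the adult; E19 and adult means were alike and P2 pool 2 was the lowest value. Ubr4, which recognises destabilising N-terminal residues, read 470.2 and 501 units at E19, 365 and 188 at P2, then 629.9 and 643 in the adult, and Hectd4 read 791 and 725 units at E19, 497 and 383 at P2, then 958 and 1035 in the adult. Mdm4, the partner of Mdm2 that holds p53 inactive, read 648 and 671 units at E19, 285 and 209.6 at P2, then 775 and 482 in the adult, and the spread between its adult pools was the widest of the 3 stages. Trim2, Usp32 and Mindy2 had dips of 1.59 to 1.63.

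Genes of translation and RNA gave 7 members. Nufip2, an RNA-binding partner of the fragile X protein, read 771 and 789 units at E19, 328 and 368 at P2, then 659 and 882 in the adult, and Ankhd1, a protein of ankyrin repeats with an RNA-binding KH domain, read 1088 and 1086 units at E19, 619.6 and 419 at P2, then 1121 and 1058 in the adult. Both returned in the adult to the E19 level within the spread of the pools. The other Nufip2 probe sets at the 200-unit level missed the rule. The brightest had means of 2782, 2458 and 3405 units at E19, P2 and adult, a lower ratio of 1.13. Another had 645, 716 and 798 units, with P2 above E19, and the dimmest 209, 202 and 239. Eif3a and Eif3c are subunits of the initiation factor eIF3, which brings the small ribosomal subunit to mRNA. Eif3c was the second brightest member and read 3993 and 3993 units at E19, 2821 and 2497 at P2, then 4064 and 4135 in the adult, a dip that passed the limit by a narrow margin (1.502). The member probe set of Eif3a was dim, at 222 and 250.2 units at E19, 134 and 86.7 at P2, then 219 and 198 in the adult, whereas the bright one read 2971 and 3049 units at E19, 2620.1 and 2548 at P2, then 3031 and 2869 in the adult. That probe set was lowest at P2 in both pools but by less than 1.5 times.

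Tnrc6b, a partner of Argonaute in silencing by microRNAs, qualified with 3 probe sets. The brightest read 1131 and 1177 units at E19, 688 and 630.3 at P2, then 1370.0 and 1269 in the adult, the next 391 and 449 units at E19, 266 and 229 at P2, then 585 and 541 in the adult and the last 236 and 296 units at E19, 139 and 163 at P2, then 215 and 250.01 in the adult. All 3 had both P2 pools under every other pool. Prrc2c, which RefSeq lists in the rat as a transcribed pseudogene, had means of 769.6, 399 and 659 units at E19, P2 and adult, and the noncoding RNA Oip5-as1 had means of 267, 158 and 238. The brightest Prrc2c probe set missed the rule, with means of 8186, 6009 and 6663 units. There P2 pool 1 (6555 units) lay above adult pool 2 (6509 units).

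Metabolic and mitochondrial genes gave 12 members, among them Abhd2, with the widest gap between E19 and the adult. Abhd2, a serine hydrolase of lipids, read 231 and 238 units at E19, 147 and 133 at P2, then 1474 and 1416 in the adult, so that the dip was a small step before a large rise. Bhmt2, a homocysteine methyltransferase, read 1621 and 1754 units at E19, 1126 and 1065 at P2, then 4927 and 3637 in the adult, and Pon3, a lactonase of the paraoxonase family, read 1309 and 1329.6 units at E19, 841 and 779 at P2, then 2312 and 2529.8 in the adult. In these 3 genes P2 was below E19 by less than the adult was above it. Fasn, the fatty acid synthase, read 1499 and 1634 units at E19, 1233 and 837 at P2, then 2096 and 2189 in the adult on its kept probe set and 420.0 and 390.1 units at E19, 266 and 227 at P2, then 661 and 765 in the adult on a dimmer one, which met the rule as well.

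Assembly factors of the respiratory chain were among the mitochondrial members. Cmc1, an assembly factor of cytochrome c oxidase, read 2067 and 1746 units at E19, 1021 and 1081 at P2, then 2191 and 2338 in the adult, and Coa5, another such factor, read 277 and 296 units at E19, 151 and 189.8 at P2, then 284 and 311 in the adult on a dim probe set. Its bright probe set read 4307 and 4482 units at E19, 3919 and 3907 at P2, then 5513 and 5457 in the adult. Pdp2, which reactivates pyruvate dehydrogenase, and Gpd2, the glycerol-3-phosphate dehydrogenase of the inner membrane, had dips of 1.77 and 1.74. Hdhd3, Lpgat1, Nat8f1 and Uap1l1 completed the group with dips of 1.501 to 1.68.

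**Figure D2:**
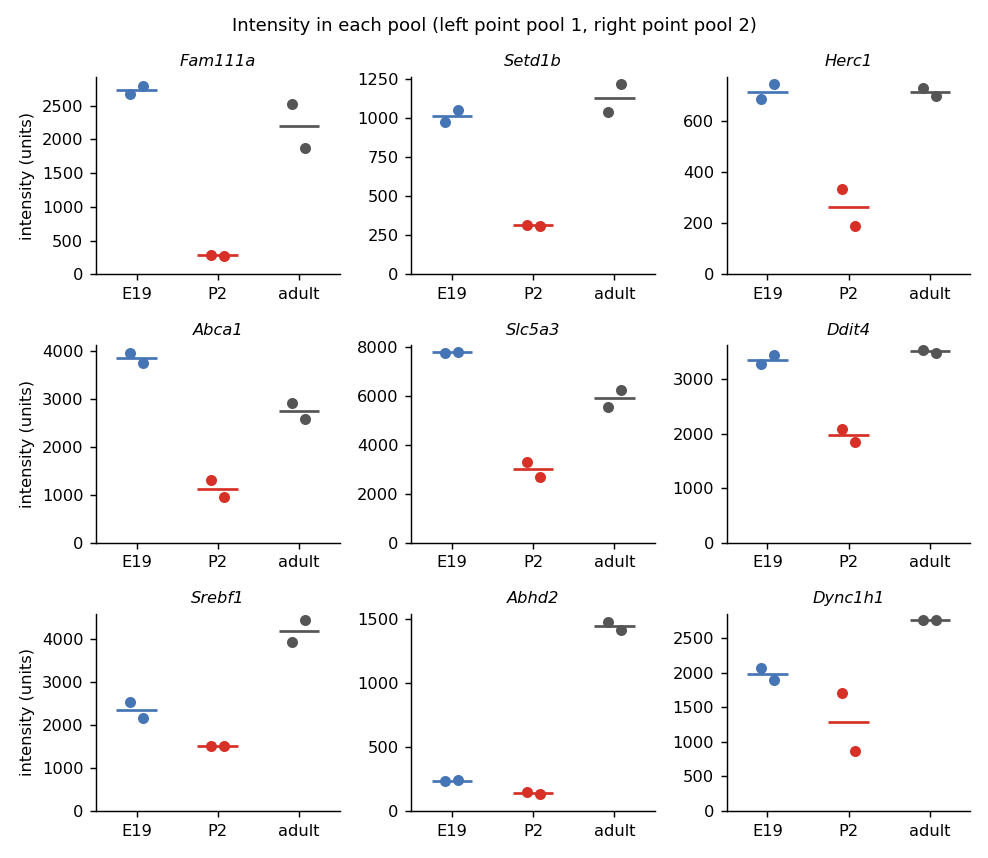
Intensity (y axis, units, from 0) of 9 members in each pool at E19, P2 and in the adult (x axis), with a line at the mean of the 2 pools. P2 points lie under all others in each panel, as the rule requires; Fam111a and Setd1b have P2 pools that nearly coincide, Herc1 and Dync1h1 have P2 pools that lie apart, and Abhd2 and Srebf1 end higher in the adult than they began.

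Cytoskeleton and motor genes gave 11 members, many of them genes of giant proteins. Dst, a plakin that links filament systems, read 1546 and 1522 units at E19, 990.4 and 725 at P2, then 1980.3 and 1924 in the adult, and Syne1, a nesprin of the nuclear envelope, read 726 and 779.8 units at E19, 523 and 405 at P2, then 2219.6 and 2068 in the adult. Sptbn1, a spectrin of the membrane skeleton, read 391 and 386 units at E19, 281 and 235 at P2, then 469 and 436 in the adult. Its bright probe set had means of 6974, 6661 and 8692 units at E19, P2 and adult, and there P2 pool 1 lay above E19 pool 1. Dync1h1, the heavy chain of cytoplasmic dynein, read 2062 and 1895 units at E19, 1705 and 869 at P2, then 2759 and 2758 in the adult, with P2 pool 1 close to the E19 values and pool 2 far under them. Sync, an intermediate filament protein, read 1208 and 1229 units at E19, 798 and 315 at P2, then 1021 and 1006 in the adult. Its P2 pool 1 was already well under the E19 values, and pool 2 was far lower still. In both of these genes the P2 mean owed its low value largely to pool 2. Myo10, Kif21a, Limk2, Ahi1, Wasl and Cep350 had dips of 1.51 to 1.70.

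Signalling and autophagy gave 8 members. Ctdspl, a phosphatase of the small C-terminal domain family, read 987 and 1017 units at E19, 368 and 194 at P2, then 822 and 883 in the adult, the third deepest dip. Its 2 other probe sets above 100 units did not share it. The brighter read 1247 and 1099 units at E19, 1584 and 1570.0 at P2, then 1269 and 1188 in the adult and the dimmer 438 and 431 units at E19, 517 and 569 at P2, then 418 and 381 in the adult, both highest at P2. Ddit4, an inhibitor of mTORC1 that is induced by hypoxia, glucocorticoid and stress, read 3276 and 3439 units at E19, 2092 and 1852 at P2, then 3541 and 3491 in the adult, and it was the third brightest member. Shoc2, a scaffold of the RAS pathway, read 267 and 248 units at E19, 146 and 132 at P2, then 253 and 246 in the adult. The kinases Taok1 and Hipk2 and the adaptors Bcar3, Azi2 and Ambra1 had dips of 1.54 to 1.67.

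Among 7 transcription factors, Srebf1 and Nfat5 were the brightest. Srebf1, the driver of fatty acid synthesis genes, read 2531 and 2156 units at E19, 1519 and 1511 at P2, then 3920.2 and 4435 in the adult, with P2 pools that nearly coincided. Nfat5, the factor of the osmotic response, read 2435 and 2219 units at E19, 1329.5 and 1142 at P2, then 1993 and 1899 in the adult. Rora, a nuclear receptor of the circadian clock, read 535 and 523 units at E19, 319 and 336 at P2, then 787 and 710.0 in the adult, and Zfp292, a zinc finger factor, read 415 and 455 units at E19, 223 and 179 at P2, then 326 and 292 in the adult. Rora was higher in the adult than at E19 in both pools, and Zfp292 lower. Zfp462, Zfp536 and Glis1 had dips of 1.58, 1.70 and 1.51.

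Genome maintenance gave, besides Fam111a, 4 members: Prkdc (the DNA-dependent protein kinase), Rtel1 (a helicase of telomeres), Parp4 and Ascc3 (a helicase of alkylation repair), with dips of 1.503 to 1.73. The last 3 members were put in no group. Nhsl2 read 211 and 231 units at E19, 91.9 and 90.1 at P2, then 392 and 426 in the adult, and with both P2 pools under 100 units its ratios are bounds against 100 units, at least 2.21-fold at E19 and at least 4.09-fold in the adult. Prune2 read 213 and 243 units at E19, 87.1 and 124 at P2, then 366 and 473 in the adult. Brighter probe sets of Prune2 missed the rule, with means of 314, 281 and 646 units at E19, P2 and adult on the first. The second had 343, 360 and 685 units, with P2 above E19. Ube3al1, a noncoding RNA by RefSeq, read 495 and 377 units at E19, 168 and 58.2 at P2, then 266 and 373 in the adult, the widest relative gap between P2 pools among the members. Ube3a, the ubiquitin ligase whose name it carries, read 3364 and 3224 units at E19, 1469 and 1821 at P2, then 2218 and 2551 in the adult. Whether the 2 probe sets share sequence was not tested.

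**Figure D3:**
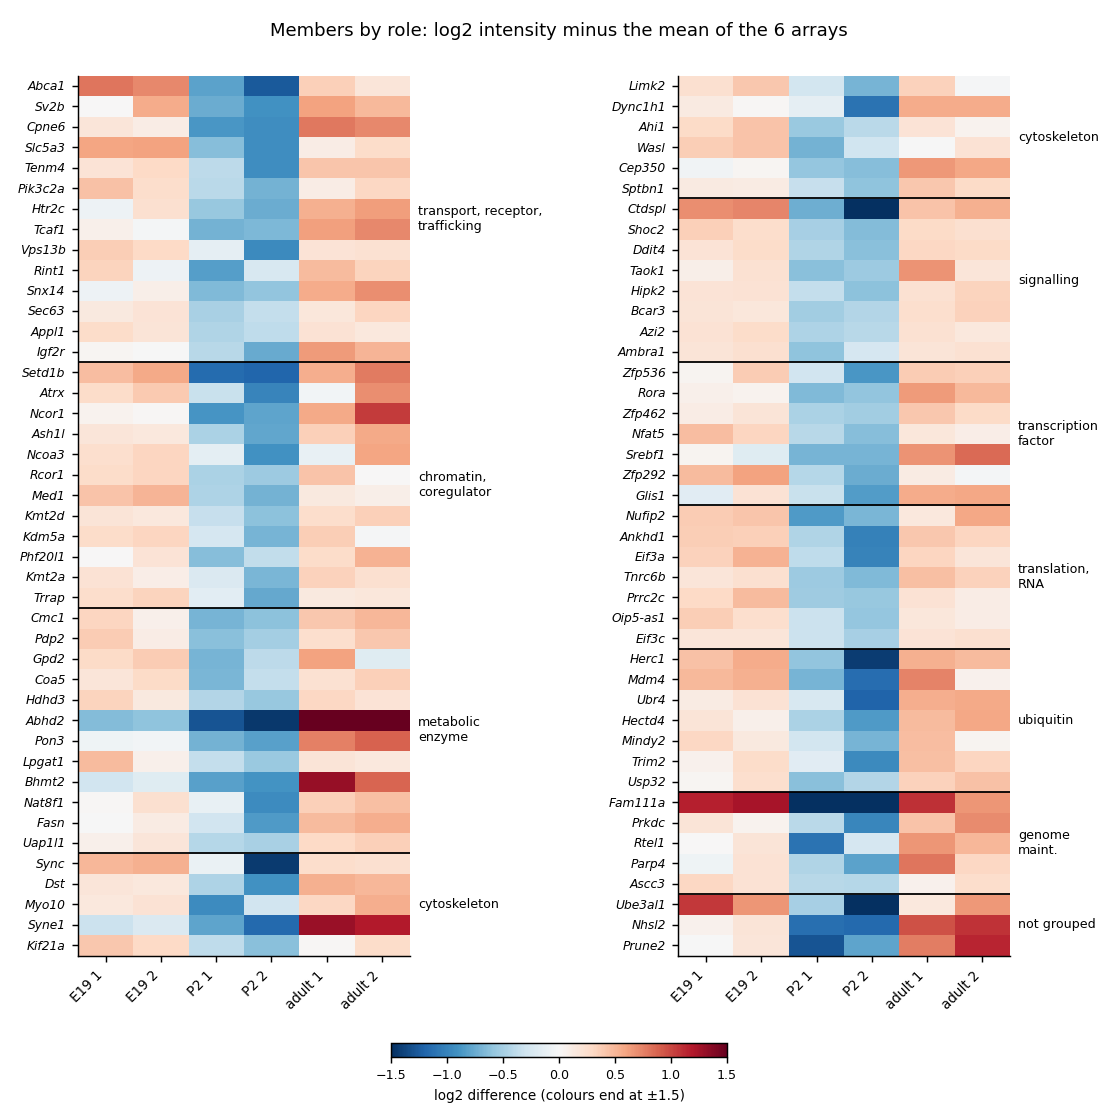
Every member is a line and every array a column; colour is log2 intensity minus the mean of that member over the 6 arrays, from -1.5 (blue) to 1.5 (red). Members are grouped by role and sorted by the depth of the dip, and the P2 columns are blue throughout, with P2 pool 2 deeper than pool 1 in 63 of the 86 lines.

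By ratio and level, members and genes just outside the rule had close values. The shallowest members were Uap1l1, Eif3c and Oip5-as1, with lower ratios of 1.501, 1.502 and 1.502, while Atp6v0a2, Golgb1 and Akap13 stayed outside with 1.499, 1.499 and 1.498. By level the dimmest members were Hdhd3, Myo10 and Eif3a, whose lower stage mean was 202, 204.5 and 208 units, and Cyp46a1, Smarca4 and Ap5s1 stayed outside at 195, 191 and 184 units. By separation, the lowest E19 or adult value was 1.02 times the higher P2 pool in Ncoa3, 1.10 times in Nat8f1 and 1.11 times in Dync1h1. Outside, Mga, Rpl3 and Pxmp4 had deep enough means but overlapping pools, with 0.913, 0.869 and 0.216 times, so that the last lay far from the limit.

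Other probe sets of the member genes were screened by the same rule on the same arrays, so their values are a description. There were 118 of them for 60 genes, and 61 of these, from 41 genes, reached 200 units at E19 and in the adult. Of the 61, 7 met the rule themselves and were set aside as dimmer, from Abca1, Ash1l, Atrx, Fasn, Igf2r and Tnrc6b. Of the 54 that missed it, the P2 mean was the lowest of the 3 in 39 (72.2%), both P2 pools lay under all other pools in 28 (51.9%), and the P2 mean was the highest in 6 (11.1%). Over the 9209 probe sets of other genes at that level, which all missed the rule, the P2 mean was lowest in 24.3%, both pools lay under the rest in 11.4%, and the mean was highest in 2301 probe sets. Probe sets of a gene share its RNA and its arrays, so they are no further samples.

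In 56 members the kept probe set was also the gene's brightest, and in the other 30 a brighter one had, by the way the rule keeps probe sets, missed it. Zfp292 had 4 other probe sets at 200 units, all with both P2 pools under the rest, and the brightest read 1266 and 1355 units at E19, 777 and 558 at P2, then 922 and 960.0 in the adult. Kdm5a read 2446 and 2332 units at E19, 1543 and 1553 at P2, then 1818 and 1848 in the adult on its brightest, again lowest at P2. In contrast Azi2 read 505 and 552 units at E19, 884 and 873 at P2, then 589 and 498 in the adult on a brighter probe set, the reverse of its kept one, and Oip5-as1 read 3039 and 2969.8 units at E19, 3523 and 3559 at P2, then 3416 and 3306 in the adult. For Ctdspl, Azi2, Appl1, Trim2 and Oip5-as1 at least 1 other probe set was thus highest at P2.

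Long genes were common among the members. By the RefSeq annotation of GRCr8 the span of a member from start to end had a median of 89.1 kb, against 24.5 kb in the 7547 genes at the 200-unit level that have a span, and 41 members (47.7%) covered 100 kb or more, against 13.5%. Tenm4 was the longest at 2975 kb, followed by Rora at 733 kb, Vps13b at 577 kb and Syne1 at 471 kb. The share of genes that were members was 0.427% under 20 kb (14 of 3279), 0.615% from 20 to 50 kb (13 of 2113), 1.59% from 50 to 100 kb (18 of 1135), 3.95% from 100 to 200 kb (27 of 684) and 4.17% above (14 of 336). Over all genes at this level, from the shortest class to the longest, the median P2 minus E19 difference was 0.04, 0.01, -0.04, -0.06 and -0.08 on the log2 scale. The median P2 minus adult difference was 0.02, -0.03, -0.04, -0.08 and 0.02, so it did not follow span in the longest class. The median of P2 pool 2 minus pool 1 was 0.04 in the shortest class and -0.05 in the longest. The part of gene span in the dip was not tested. A gene could become a member through any of its probe sets, and the number of probe sets per gene was not set beside span. Short members exist too: Ddit4 spans 2.10 kb, Slc5a3 2.45 kb and Fam111a 15.7 kb.

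**Figure D4:**
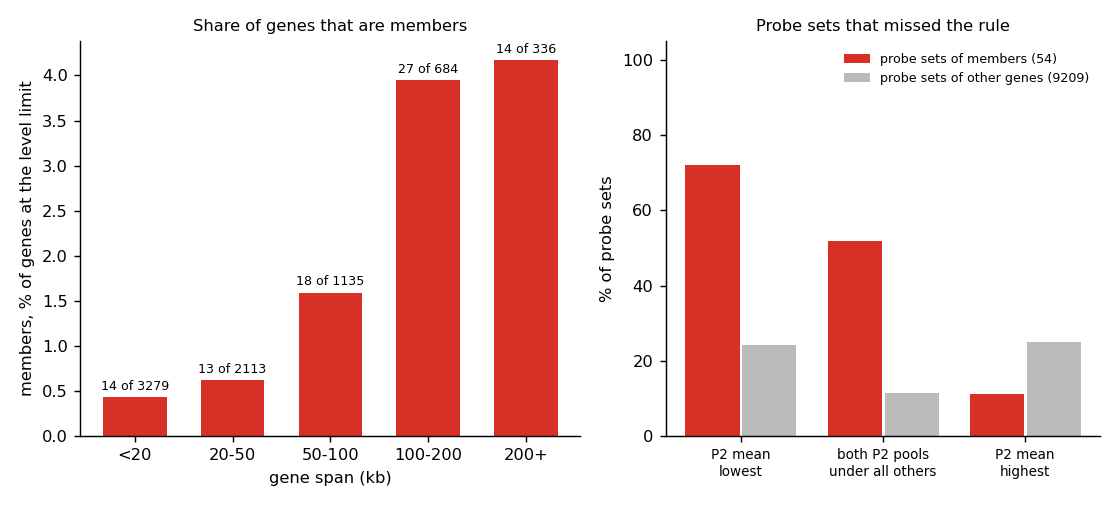
Left, members as a percentage of all genes at the 200-unit level (y axis) in classes of gene span (x axis, kb), with counts over the bars, from 0.427% in the shortest class to 4.17% in the longest. Right, percentage of probe sets (y axis) whose P2 mean was lowest, whose P2 pools both lay under all others, or whose P2 mean was highest, for 54 probe sets of members (red) and 9209 of other genes (grey), all of which missed the rule. The red bars stand at 72.2%, 51.9% and 11.1%.

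Members were also compared between E19 and the adult. The rule does not set this difference directly, but it asks both stages to lie above P2 and so limits which genes can be members, and the shares of calls are a description. Between E19 and the adult 3 members were higher at E19, 15 were lower and 68 did not pass the test (limma on log2 intensity over all 17808 probe sets tested, Benjamini-Hochberg adjusted p under 0.05). At that threshold 30.4% of all probe sets tested were higher and 24.2% lower, and among the single-gene probe sets at the 200-unit level the shares were 25.5% and 26.5%. The members' counts come to 3.49% and 17.4% of the 86, and nothing is read from their place beside these shares. The share lower at E19 lay on the other side of the background when the E19 and adult arrays were fitted alone (22 members, 25.6%, against 24.3% of the probe sets tested). It did so too without P2 pool 1 (25.6% against 23.5%), without P2 pool 2 (24.4% against 23.3%), after median centring and without a filter on low values (12.8% against 9.65%). The median difference was -0.12 in the members and -0.02 in the genes at the level, as log2 of E19 minus adult.

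Lower at E19 were, by the size of the log2 difference (± SE), Abhd2 (-2.62 ± 0.09, adjusted p = 8.86e-05), Syne1 (-1.51 ± 0.15, adjusted p = 0.00105), Bhmt2 (-1.33 ± 0.16, adjusted p = 0.00221), Nhsl2 (-0.89 ± 0.10, adjusted p = 0.00146) and Pon3 (-0.87 ± 0.09, adjusted p = 0.00147) in limma. Abhd2 was thus 6.16-fold, Syne1 2.85-fold and Bhmt2 2.51-fold higher in the adult, and no other member reached a 2-fold difference in its means. The other 10 were Prune2, Srebf1, Ncor1, Tcaf1, Cep350, Snx14, Cpne6, Igf2r, Htr2c and Rora, with log2 differences from -0.87 to -0.50. These are values of the kept probe sets, and brighter ones of Ncor1, Tcaf1 and Htr2c had smaller gaps. Their E19 and adult means were 1277 and 1319, and 945 and 1149 units, in Ncor1. They were 1969 and 2045 in Tcaf1, and 15716 and 17523 in Htr2c. Brighter probe sets of Prune2 had 314 and 646, and 343 and 685 units. For all 15 both adult pools were above both E19 pools. The call was lost in limma for Htr2c, Igf2r, Ncor1 and Prune2 without E19 pool 1, for Igf2r, Ncor1, Prune2 and Rora without E19 pool 2, for Htr2c and Igf2r without adult pool 1, and for Htr2c and Prune2 without adult pool 2.

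Higher at E19 were Zfp292 (0.49 ± 0.14, adjusted p = 0.0332), Slc5a3 (0.40 ± 0.13, adjusted p = 0.0483) and Med1 (0.35 ± 0.11, adjusted p = 0.0492) in limma. Med1 read 516 and 547 units at E19, 279 and 234 at P2, then 424 and 409 in the adult. These 3 calls were narrow. None of the 3 was called once each array was centred on its median, and none when any 1 of the E19 or adult pools was left out. Median centring takes out 0.0995 at E19 and -0.177 in the adult (log2), after which 35 members were lower at E19, the 15 included, which is 40.7% beside a background of 38.5% lower and 19.6% higher. Abca1, with every E19 pool above every adult pool, had a difference of 0.49 ± 0.17 and an adjusted p of 0.0622 in limma, and Fam111a one of 0.33 ± 0.16 with an adjusted p of 0.133.

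By role, the calls lower at E19 fell on transport, receptors and trafficking (5 of 14), metabolism (3 of 12), the cytoskeleton (2 of 11), transcription factors (2 of 7), chromatin (1 of 12) and the genes without a group (2 of 3). In limma 0 of 7 ubiquitin members, 0 of 7 of translation and RNA, 0 of 8 of signalling and 0 of 5 of genome maintenance were called in either direction. At an unadjusted p under 0.05, 1 of the ubiquitin members and 0 of the other 3 groups passed. Over all probe sets tested 30.4% were called higher and 24.2% lower at E19 by adjusted p. The share of all probe sets at an unadjusted p was not counted. The groups are small, and nothing is read from these counts by role.

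**Figure D5:**
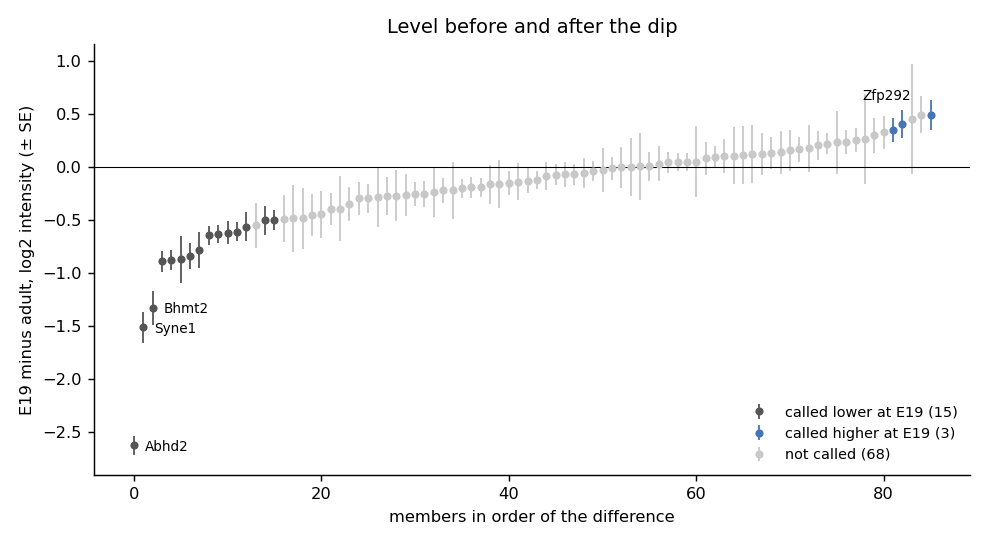
E19 minus adult log2 intensity (y axis, mean difference ± SE from the limma fit) of the 86 members, sorted along the x axis. The 15 members called lower at E19 are dark grey, the 3 called higher blue and the 68 others light grey; Abhd2, Syne1 and Bhmt2 lie apart at the low end.

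Genes around the members were read from lists of pathways and cell types, each gene by its brightest probe set. Among all 10334 genes so tested in limma, 2.56% were lower and 3.61% higher at P2 than at E19, 21.8% were lower and 28.8% higher at P2 than in the adult, and 0.726% were lower than both. These shares include the members, which the list counts below leave out. The lists held 464 further genes with a probe set, of which 392 were tested and 1 was lower at P2 than both. This was Chac1, a stress-induced enzyme that degrades glutathione, which read 169.6 and 184 units at E19, 104.5 and 109.5 at P2, then 202 and 234 in the adult. Its differences in limma were -0.72 against E19, adjusted p = 0.0334, and -1.02 against the adult, adjusted p = 0.00191. It missed the 200-unit level at E19 and so was no member, and without any 1 of the E19 or P2 pools it was no longer called.

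Chromatin regulators were the list with the most members, 6 of its 37 tested genes: Kmt2a, Kmt2d, Ash1l, Ncor1, Kdm5a and Atrx. It was also the list with the most tested genes. At the 200-unit level it held 34 genes, and over all genes at that level 1.14% were members. Of the 31 others, 0 were lower at P2 than at E19 in limma (13 at an unadjusted p under 0.05), while 6 were lower and 2 higher at P2 than in the adult. Their median difference was -0.30 against E19 and -0.04 against the adult on the log2 scale, and that of all genes tested was 0.01 and 0.05. The share of all genes at an unadjusted p was not counted. Apart from the 6 chromatin regulators, the members on the lists were Htr2c of the epithelium, Ddit4 of the stress and glucocorticoid lists and Rora of the clock. No member stood on the lists of heat shock, immediate early, splicing, ribosomal protein, oxidative phosphorylation, cholesterol synthesis or hypoxia genes. Ddit4, though induced by hypoxia, is not on the hypoxia list. Nor did a member stand on the lists of fibroblasts, vessels, mural cells, macrophages, neutrophils, red cells, lymphocytes, neurons, glia, cilia or dividing cells. These absences say little, since a gene under 200 units at E19 or in the adult cannot be a member. The mural, neutrophil and lymphocyte lists held 0 genes at that level, those of vessels and neurons 1 each. The red cell list held 2, and those of glia and dividing cells 3 each.

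Families to which members belong were read from lists drawn up once the members were known, and these lists support nothing by themselves. Of the 11 tested subunits of eIF3, Eif3a and Eif3c were members, and 0 of the 9 others were lower at P2 than E19 or than the adult in limma, nor at an unadjusted p under 0.05, while 4 were higher at P2 than in the adult. Among 16 tested genes of H3K4 methyltransferase complexes 3 were members, and of 13 others 0 were lower than E19 (2 at an unadjusted p under 0.05), and 2 were lower and 5 higher than the adult. The large ubiquitin ligases had 3 members in 23 tested. Of the 20 others 9 were lower and 2 higher than the adult, and 2 were lower than both stages, Ube3a (-1.01 against E19, adjusted p = 0.0267, and -0.54 against the adult, adjusted p = 0.0275) and Herc2, which read 1654 and 1589.9 units at E19, 1096 and 1062 at P2, then 1647 and 1496 in the adult. Herc2 differed by -0.59 against E19, adjusted p = 0.0346, and -0.54 against the adult, adjusted p = 0.0074, in limma. Neither was called against both stages once any 1 of the E19 or P2 pools was left out, nor Ube3a without adult pool 2.

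Lipid genes moved in both directions. Abca1, Srebf1 and Fasn were members among 16 tested targets of the liver X receptor and genes of fatty acid synthesis, and of the 13 others 3 were lower and 1 higher than at E19, and 5 were lower and 4 higher than in the adult. Scd2, a desaturase, read 9209.9 and 9871 units at E19, 6271 and 6894 at P2, then 12423 and 12955 in the adult, with limma differences of -0.54 against E19, adjusted p = 0.0427, and -0.95 against the adult, adjusted p = 0.00154, and was the single one lower than both. That call was lost when any 1 of the 6 pools was left out and under median centring. Of 19 tested genes of cholesterol synthesis, none of them a member, 0 were lower than at E19 in limma (1 at an unadjusted p under 0.05) and 1 was higher, and 15 were lower than in the adult. The osmotic list held 7 tested genes, with Nfat5 and Slc5a3 as members and, of the 5 others, 0 lower than E19 in limma (1 at an unadjusted p under 0.05), and 1 lower and 1 higher than the adult. Spectrins, plakins and nesprins had 3 members in 8 tested, and of the 5 others 0 were lower than E19 (1 at an unadjusted p under 0.05), and 3 were lower than the adult.

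Promoter letters of the members were counted as a description. A RefSeq promoter of 300 bases (250 before and 50 after a transcript start, first listed start of a gene) was at hand for 68 of the 86 members. The GC box was in 73.5% of them, against 65.8% of 6441 genes at the 200-unit level and 34.9% of all 27457 promoters, and the CCAAT box in 26.5%, against 38.8% and 37.7%. The TATA box (TATAAA) was in 7.35%, 6.09% and 14.3%, and the E-box in 10.3%, 10.0% and 6.65%. The CRE core (TGACG) was in 30.9%, 35.1% and 22.0%, and the full CRE (TGACGTCA), which contains it, in 1.47%, 3.42% and 1.91%. An AP-1 site (TGANTCA) was in 5.88%, 4.22% and 7.33%, a heat shock unit (GAANNTTC) in 2.94%, 5.34% and 8.34%, the interferon-stimulated response element in 2.94%, 2.83% and 3.77%, the serum response element in 1.47%, 1.37% and 1.64%, and the D-box in 1.47%, 0.745% and 1.49%. Both strands were searched. The median GC content was 63.7% in the members, 61.7% in the genes at the level and 52.3% in all promoters.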

How the data were processed

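Lateral ventricular choroid plexuses of E19, P2 and adult rats were measured on Rat 230 2.0 arrays, 2 pools per stage. The deposited values are intensity, on a linear scale, made by the authors with MAS5 in Affymetrix Expression Console, which gives every array the same trimmed mean (versions not given in the sources used here). The table held 31099 probe sets with 0 missing values and 57 controls, which were left out. Gene names came from the platform annotation, updated by gene number through RefSeq's GRCr8 table (20826 with 1 gene, 436 with several, 9780 with none listed, 20758 matched).

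A linear model with 1 mean per stage was fitted to log2 intensity over all 6 arrays (limma 3.58.1, R 4.3.3). It took in the 17808 probe sets whose mean reached 100 units at any stage, with 3 residual degrees of freedom and 2.15 prior ones, and p was adjusted by Benjamini-Hochberg over all of them. For lists a gene was read by its brightest single-gene probe set. The procedure was tested on simulated data. Tables and plots were made in Python 3.11.15. On arrays the number of pools limits the precision.

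Members and lists were chosen with earlier results of these data known. Full values were given for the 20 deepest dips, the 10 brightest members, up to 5 called differences between E19 and adult per direction (the largest), members on lists or of 1 family, and, as the limiting value, 3 genes on each side of a limit. Others were named after their values were seen. Roles and the 6 family lists were written once the members were known. Alternatives changed the filter, scaling, limits of the rule, probe set choice, pairing and variance trend, and left out each pool.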

Additional observations from a re-analysis of the deposited data

How the results depend on the processing

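Dips depended most on the limits set. Instead of 86 genes, 131 met the rule at a level of 100 units, 55 at 400 units, 299 where both means had to exceed P2 by 25%, 14 at a ratio of 2, and 56 where a gene's brightest probe set had to qualify. Counted as probe sets, those with no gene or several included, there were 137. Leaving out 1 pool gave 81 to 150, the highest without P2 pool 1, and 83 without P2 pool 2, which shared 55 with the 86. Median centring gave 109 (76 shared), quantile normalization 107 (82 shared) and geometric means 90 (85 shared).

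Members higher at E19 than in the adult in limma, 3 as reported and 4 at an unadjusted p under 0.05, were 0 without a filter, 0 after median centring, 0 at an adjusted p under 0.01 and 5 with a variance trend, and 0 to 4 with 1 pool left out. Members lower at E19, 15 as reported, were 35 after median centring, and 11 to 22 with 1 pool left out. With a replicate block the counts were 2 and 14. The pool numbers do not pair the stages, since deviations of same-numbered pools correlated at -0.06, -0.04 and 0.01. For the 18 members called, 206 of 252 alternative values kept the call, 46 lost it and 0 changed sign.

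List genes lower at P2 than both stages, 1 as reported, were 0 without a filter, 4 with the filter at 200 units, 2 after median centring, 2 after quantile normalization, 0 with a replicate block, 13 with a variance trend, 0 at an adjusted p under 0.01, and 0 to 1 with 1 pool left out. The cause of these moves was not tested. With 2 pools per stage, a member that did not pass the test may still differ between E19 and the adult.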

Other observations

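Probe sets with no gene listed in the annotation met the level, ratio and separation limits more often than those with 1 gene. There were 44 of 1923 at the 200-unit level, or 2.29%, beside 93 of 9356, or 0.994%. They are unnamed here, and no value was joined to a gene. Probe sets listed with several genes gave 0.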
